A study of Homo sapiens with 12 samples.

Results

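The 57 genes described here are long noncoding RNA genes measured in 22Rv1 cells, a human line established from a prostate carcinoma. They were chosen by symbol and by level: a platform symbol that begins with LINC or SNHG and continues with a digit, or that is NEAT1, MALAT1, GAS5, EPB41L4A-AS1, DANCR, TUG1, MEG3 or PVT1, and a mean of at least 3 on the log2 scale over the 12 arrays for the gene's brightest probe set. Of the 19775 genes with a probe set of their own on the array, 858 had such a symbol and 155 of these were bright enough to be tested, among 12635 tested genes. The level minimum left 57, made up of 7 host genes of small nucleolar RNAs (snoRNAs), MALAT1, TUG1 and 48 numbered LINC genes. The symbols and the level over all arrays chose the genes. The list was also proposed with results of these arrays in view, so the counts over it are descriptions of these genes and are set beside the same counts over all tested genes.

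The study placed 3 arrays in each of 4 groups: cells given vehicle, and cells given a small compound for 4 h, 6 h or 16 h, all grown in serum-supplemented medium. The series title calls the compound an inhibitor of ONECUT2, a homeodomain transcription factor, and its dose is not given in the sources used here. All groups are the same unmodified line, and no group carries an engineered allele. The labels give the vehicle arrays no time. Titles of the 16 h arrays also leave out 1 code element found in all other titles, so compound, hours in culture and whatever that element records cannot be told apart at 16 h. The labels do not say whether the replicates of a group were grown apart, and p-values therefore reflect array-to-array spread that may be technical.

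Long noncoding RNAs are transcripts without a long open reading frame that act as RNA or through the act of being transcribed. MALAT1 is a very abundant nuclear RNA of splicing speckles, NEAT1 is the scaffold of paraspeckles, and TUG1 is a broadly expressed nuclear and cytoplasmic RNA. The SNHG genes, GAS5, DANCR and EPB41L4A-AS1 carry snoRNAs in their introns: the snoRNAs guide modification of ribosomal RNA, and the spliced remainder of several hosts is removed by nonsense-mediated decay, a pathway tied to translation. PVT1 neighbours MYC and MEG3 is an imprinted maternal transcript, and most numbered LINC genes have no agreed function.

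On these arrays NEAT1 had 0 probe sets of its own and 9 that the annotation shares with other symbols, so no level is given for it. MEG3, with 10 probe sets, reached a mean of 2.18 at its brightest, and PVT1, with 1 probe set, reached 2.1. Both lay near the highest unspiked bacterial control, which averaged 2.14 ± 0.13 (SD, n = 3) on the vehicle arrays, and below the level minimum. In all, 39 symbols that meet the naming rule appeared only on probe sets shared with other genes. At the minimum, LINC01278 (mean 3.05), LINC01134 (3.05) and LINC00115 (3.01) lay just inside it, and LINC00960 (2.98), LINC00886 (2.96) and LINC01566 (2.95) lay just outside. LINC00115 and LINC00664 passed it only through their 16 h arrays. Of the 57 genes, 19 had a mean below 4, 20 lay from 4 to below 6, 8 from 6 to below 8, and 10 at 8 or above. Signals of different genes come from different probes and are not compared with each other.

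The 16 h arrays differed from the others in their RNA controls. The 18S ribosomal control averaged 9.62 ± 0.29 with vehicle, 8.98 ± 0.14 after 4 h, 8.64 ± 0.19 after 6 h and 11.06 ± 0.10 after 16 h (SD, n = 3; exact two-sided permutation p = 0.1 for each time against vehicle, the smallest that 3 against 3 arrays allow). The 28S signal differed from vehicle by -0.29, -0.34 and 1.17. The ACTB control probe sets differed, 3' minus 5', by 2.80 with vehicle and by 4.09 at 16 h, where the 5' signal was lower by 1.38 (log2 -1.38), while that of GAPDH was -0.46 and -0.43. The 8 prostate luminal genes measured here were all above the unspiked controls, with FOLH1 close to them at a mean of 2.35. Their log2 signals summed to 60.6 to 61.3 on vehicle arrays and 58.3 to 59.4 at 16 h, where HOXB13 averaged 6.40 against 7.46 with vehicle and KLK2 5.09 against 6.38. Fibroblast genes summed to 14.9 to 15.9 on vehicle arrays and 17.4 to 18.2 at 16 h over 5 genes, with COL1A1 (5.82 against 3.77) and LUM (5.35 against 4.10) higher by 1 probe set each, DCN (2.85 against 3.44) and COL3A1 (2.06 against 2.43) lower, and COL1A2 below the controls. Of the 3 measured leukocyte genes, PTPRC and CD14 were below the highest unspiked control in every group, and CD3E lay close to it. CD3E averaged 2.2 against 2.14 for that control with vehicle, and 1.99 against 1.99 after 4 h. It averaged 2.13 against 2.08 after 6 h and 1.99 against 1.94 after 16 h. Among the endothelial genes, 2 of 3 were below the controls. The part of RNA quality and of these markers in the 16 h results below was not tested. In bulk RNA, fewer cells with a transcript and less of it per cell cannot be told apart.

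At 4 h and at 6 h the fit called 0 of the 57 genes, and at 16 h it called 20. A gene is said to have risen or fallen where its adjusted p (limma, Benjamini-Hochberg over the 12635 genes) was below 0.05. Of all tested genes, 0.459% were called in the 4 h, 0.0317% in the 6 h and 42.8% in the 16 h comparison. At 16 h, 15 of the 57 genes rose, or 26.3% against 26% of all genes, and 5 fell, or 8.77% against 16.8%. The share that rose is that of the array as a whole and says nothing particular about these genes. Their median log2 change was 0.14, against 0.05 over all genes. Median centring of each array, which moved the median gene's 16 h change by -0.10, gave 13 risen and 9 fallen, where 19.2% of all genes rose and 23.9% fell. On 20 genes all 16 h arrays lay above all vehicle arrays and on 7 below, against 51.5% of all genes with groups that do not overlap. Without LINC00115 and LINC00664, 13 of 55 genes rose.

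**Figure D1:**
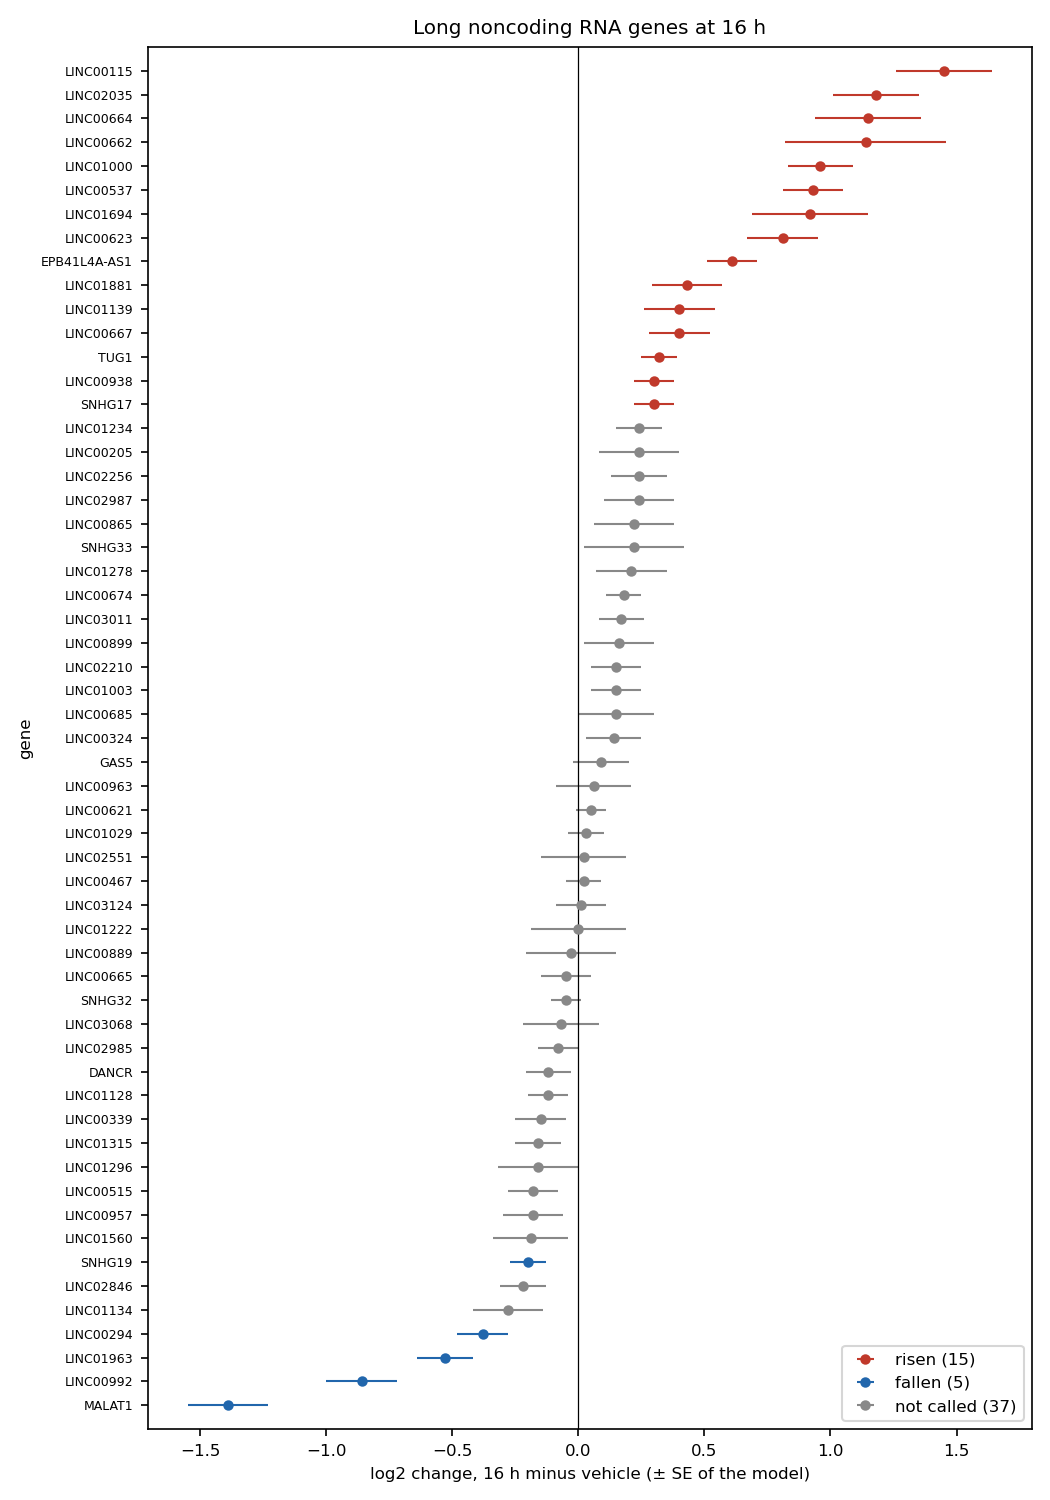
Log2 change at 16 h against vehicle (x axis, with the model's standard error as bars) of each of the 57 genes (y axis, ordered by change), with risen genes in red, fallen genes in blue and the others in grey. The 15 risen genes run from 0.30 to 1.45 and the 5 fallen genes from -1.39 to -0.20, while the 37 others lie between -0.28 and 0.24.

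MALAT1 showed the largest fall among the 57 genes. Its signal was 11.96, 11.46 and 11.86 on the vehicle arrays, 11.75, 11.26 and 11.21 at 4 h, 11.40, 11.10 and 11.03 at 6 h, and 10.29, 10.33 and 10.49 at 16 h. The 16 h arrays lay below all others, the 6 h arrays lay below all vehicle arrays, and the 4 h arrays overlapped them. At 16 h MALAT1 fell 2.63-fold (log2 change -1.39 ± 0.16 SE, adjusted p = 3.9e-05). The changes of -0.35 at 4 h (adjusted p = 0.46) and -0.58 at 6 h (adjusted p = 0.3) did not pass. These values are from 224567_x_at, a probe set of the class that can bind related transcripts. On the dim 224559_at, outside the classes with such cross-matching, the 16 h change was -0.59.

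The fall was not shared by all MALAT1 probe sets. Of the 12 listed, 11 were bright enough for a fit over all 27306 such probe sets, and at 16 h 7 fell, 2 rose and 2 were not called. In that fit 23% of all probe sets rose and 16.7% fell. The probe set 224568_x_at fell most, by 1.98 on the log2 scale (adjusted p = 0.0093), from 7.97, 5.99 and 6.40 on vehicle arrays to 5.06, 5.13 and 4.23. The probe set 224558_s_at rose by 1.08 (adjusted p = 1.6e-05), from 7.72, 7.84 and 7.41 to 8.68, 8.88 and 8.64, with no overlap between the groups. The dimmer 228582_x_at also rose, by 0.57 (adjusted p = 0.027). Both directions therefore occur within the signals annotated to this 1 gene, and which parts of the transcript the probes cover is not given in the sources used here.

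The time course differed between these probe sets as well. The probe set 224559_at fell at each time, by 0.82, 0.89 and 0.59 in order of time (adjusted p = 0.013, 0.017 and 0.0016), from a dim 3.23, 2.84 and 3.12 on vehicle arrays to values between 1.97 and 2.56 afterwards, close to the unspiked controls. It was the only probe set of the 57 genes called at 4 h or 6 h, where 0.125% and 0.634% of all probe sets fell. For 223940_x_at the group means were 8.18, 6.50, 6.14 and 6.22 in order of time, with the last 2 close together, but vehicle arrays spread from 7.21 to 9.20 and only the 16 h change of -1.96 passed (adjusted p = 0.0058). The brightest probe set instead fell between 6 h and 16 h, by 0.81.

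TUG1 rose at 16 h by its brightest probe set. Its signal was 9.19, 9.23 and 9.25 on vehicle arrays, 9.26, 9.30 and 9.23 at 4 h, 9.25, 9.18 and 9.16 at 6 h, and 9.60, 9.65 and 9.39 at 16 h. All 16 h arrays lay above all others, and the rise was 1.25-fold (log2 change 0.32 ± 0.07 SE, adjusted p = 0.0031). Median centring ended the call (0.23, adjusted p = 0.061), as did a preference for probe sets outside the cross-matching classes. The mean of all TUG1 probe sets turned the direction (-0.11). Of the 4 TUG1 probe sets bright enough for the fit over probe sets, 212725_s_at rose, 212337_at fell by 0.51 (adjusted p = 0.0059) and the other 2 were not called. For 212337_at the vehicle arrays held 8.18, 7.87 and 7.86 and the 16 h arrays 7.41, 7.56 and 7.42. MALAT1 and TUG1 were the only 2 of the 20 genes with more than 1 probe set in that fit whose probe sets were called in both directions.

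**Figure D2:**
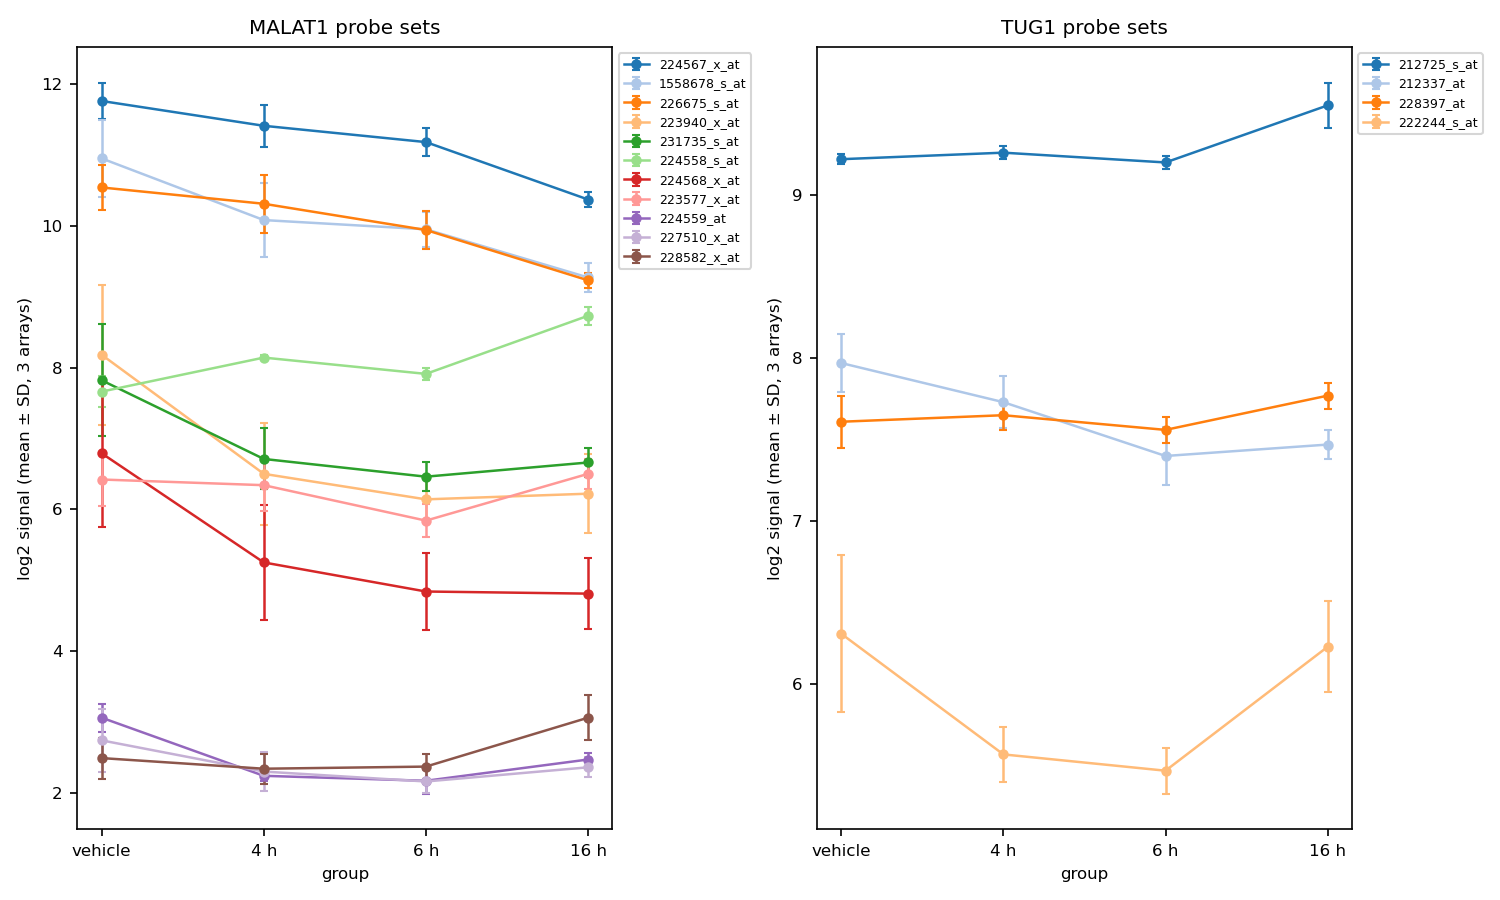
Log2 signal (y axis, mean ± SD over 3 arrays) in each group (x axis) of the MALAT1 probe sets on the left and the TUG1 probe sets on the right, 1 line per probe set. Among the MALAT1 lines, 224567_x_at declines from 11.76 to 10.37 while 224558_s_at climbs from 7.66 to 8.73, and for TUG1 212725_s_at ends higher at 9.55 and 212337_at ends lower at 7.47.

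The start regions of these genes were read from RefSeq (GRCh38.p14), as 250 bases before to 50 after the start, and 44 of the 57 genes had an entry. They were searched on both strands for 5 letter patterns: TGACNNNGC (antioxidant response element core), TGACGTCA (cAMP response element), TGATGNAA (ATF4 response element core), CACGTG (E-box) and CATGCCC. TGACNNNGC was found for 12 of the 44 genes, or 27.3%, against 13.3% of 35116 RefSeq promoters of the same length. CACGTG was found for 4 genes, against 7.26% of all promoters, and each of the others for 1 gene, against 1.85%, 3.62% and 3.78%. A match is a description of letters, not a site. The 12 genes with TGACNNNGC include 2 risen (LINC00938 and LINC00623) and 2 fallen (MALAT1 and LINC00294), so the letters occurred with both directions. The windows of MALAT1 (chr11:65497488-65497787, plus strand) and TUG1 (chr22:30969015-30969314, plus strand) are shown because these are the 2 genes whose probe sets moved in both directions, with capitals marking TGACNNNGC or its reverse complement in MALAT1, at -231 and -51 from the start, and CACGTG in TUG1, at -77.
MALAT1: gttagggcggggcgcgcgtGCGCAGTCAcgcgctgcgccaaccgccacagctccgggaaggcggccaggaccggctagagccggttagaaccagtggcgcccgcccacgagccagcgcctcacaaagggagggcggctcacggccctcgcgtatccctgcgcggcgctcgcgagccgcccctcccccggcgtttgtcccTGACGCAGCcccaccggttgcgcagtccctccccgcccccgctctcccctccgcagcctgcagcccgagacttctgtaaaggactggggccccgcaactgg
TUG1: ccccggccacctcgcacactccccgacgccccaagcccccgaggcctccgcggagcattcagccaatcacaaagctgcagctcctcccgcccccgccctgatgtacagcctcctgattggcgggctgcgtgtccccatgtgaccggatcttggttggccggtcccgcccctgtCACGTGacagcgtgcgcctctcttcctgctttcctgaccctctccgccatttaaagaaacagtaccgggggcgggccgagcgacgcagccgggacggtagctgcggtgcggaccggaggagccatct

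Among the 7 snoRNA host genes, EPB41L4A-AS1 and SNHG17 rose at 16 h, SNHG19 fell, and SNHG32, DANCR, GAS5 and SNHG33 were not called. The shares of 28.6% risen and 14.3% fallen stand beside 26% and 16.8% of all genes. EPB41L4A-AS1 carries a snoRNA of the box H/ACA class and showed the clearest rise: 7.24, 7.41 and 7.27 on vehicle arrays, 7.09, 7.46 and 7.39 at 4 h, 7.19, 7.40 and 7.44 at 6 h, and 7.86, 7.88 and 7.99 at 16 h. The 16 h arrays lay above all 9 others, and the gene rose 1.52-fold (log2 change 0.61 ± 0.10 SE, adjusted p = 6e-04). Its second, dimmer probe set 228259_s_at differed by 0.07 (adjusted p = 0.53).

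SNHG17 was at 6.25, 6.13 and 6.17 on vehicle arrays and at 6.29, 6.51 and 6.63 at 16 h, with the 4 h and 6 h arrays between 6.10 and 6.26. The 16 h arrays lay above the vehicle arrays by a narrow margin, and the rise was 1.23-fold (log2 change 0.30 ± 0.08 SE, adjusted p = 0.013). Without the third 16 h array it was 0.22 (adjusted p = 0.056). Its other probe set, 225857_s_at, rose by 0.72 (adjusted p = 0.00017).

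SNHG19 fell 1.15-fold (log2 change -0.20 ± 0.07 SE, adjusted p = 0.045), the smallest change called. Its arrays held 8.11, 8.11 and 8.15 with vehicle, 8.11, 8.21 and 8.20 at 4 h, 8.19, 8.28 and 8.36 at 6 h, and 8.05, 7.90 and 7.81 at 16 h. The 6 h arrays lay above the vehicle arrays (0.16, adjusted p = 0.62) and the 16 h arrays below them. The call was lost without any 1 of the vehicle and 16 h arrays except the first 16 h array, at -0.15 without the third 16 h array (adjusted p = 0.16) and at -0.19 to -0.21 without the others (adjusted p = 0.079 to 0.11). With all arrays, the change of -0.20 also did not pass without the filter on low values (adjusted p = 0.079), with only the 2 groups compared (adjusted p = 0.096), with the replicate number as a block (adjusted p = 0.061) or with probe sets outside the cross-matching classes preferred (adjusted p = 0.051).

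SNHG32 was at 9.97, 9.94 and 9.95 with vehicle and 9.89, 9.84 and 9.96 at 16 h, a change of -0.05 ± 0.06 SE (adjusted p = 0.51). DANCR, first described as a differentiation-antagonising RNA, was at 8.96, 8.89 and 8.71 with vehicle and 8.70, 8.75 and 8.75 at 16 h (-0.12 ± 0.09 SE, adjusted p = 0.29). These 2 bright hosts overlapped between vehicle and every time. GAS5 rests on 1 dim probe set, with 4.29, 4.32 and 4.33 on vehicle arrays and 4.56, 4.35 and 4.29 at 16 h (0.09 ± 0.11 SE, adjusted p = 0.56). The annotation lists GAS5 on 4 more probe sets together with other symbols, and these are not attributed to it here. The lack of a call for GAS5 therefore covers this dim probe set alone. Host probe sets shared with small RNA genes are given below as a group, of which 15 of 24 rose at 16 h. SNHG33 was at 4.00, 4.28 and 4.40 with vehicle and 4.35, 4.46 and 4.54 at 16 h (0.22 ± 0.20 SE, adjusted p = 0.39).

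Transcripts of the translation machinery, several snoRNA hosts among them, are known to begin with a C followed by a run of pyrimidines. Such a start, a C with at least 5 pyrimidines in a row counting the C, was found in RefSeq for SNHG19 and SNHG32, or 28.6% of the 7 hosts, for LINC02035, and for 4.07% of all promoters. SNHG17, EPB41L4A-AS1, DANCR, GAS5 and SNHG33 had none in these windows. The window of SNHG19 (chr16:2155309-2155608, minus strand) is shown with the run of 6 pyrimidines at its start in capitals, since it was the host that fell.
SNHG19: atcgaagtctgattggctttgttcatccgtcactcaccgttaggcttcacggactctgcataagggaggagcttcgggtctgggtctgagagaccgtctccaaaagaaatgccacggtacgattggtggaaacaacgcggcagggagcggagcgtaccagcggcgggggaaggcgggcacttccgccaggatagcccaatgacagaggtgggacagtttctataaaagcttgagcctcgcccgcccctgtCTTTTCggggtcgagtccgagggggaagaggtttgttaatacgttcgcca

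The better known SNHG genes could not be told from their snoRNAs in the annotation. On 24 bright probe sets a host symbol stood together with small RNA genes, in 15 distinct combinations of symbols, so several probe sets share a host. No single gene is named from them. In the fit over probe sets 15 of the 24 rose at 16 h and 2 fell, against 23% and 16.7% of all 27306 probe sets, and 0 were called at 4 h or 6 h, where 0.168% and 0.0476% of all rose. The risen ones changed by 0.19 to 1.37, with a median of 0.47. Examples were 223773_s_at, from 6.43, 6.65 and 6.65 to 7.67, 7.86 and 7.59 (1.13, adjusted p = 3.4e-06), and 227517_s_at, from 9.30, 9.42 and 9.24 to 10.07, 10.16 and 9.87 (0.71, adjusted p = 0.00011). In both, the 16 h arrays lay well above all vehicle arrays. The 2 that fell were 225065_x_at (-0.33, adjusted p = 0.0031) and 224603_at (-0.20, adjusted p = 0.033). Median centring left 12 risen, and over the tested genes it lowered the risen share from 26% to 19.2%. Leaving out any 1 vehicle or 16 h array gave 14 to 16 risen. This group of probe sets was formed after the annotation and values had been seen, so its share carries no test. Another 32 bright probe sets shared a symbol of the rule with other genes. Of these 13 rose and 5 fell at 16 h, against the same 23% and 16.7%, and 1 fell at 6 h, where 0.634% of all fell. Their 16 h changes ran from -1.73 on 1558093_s_at (adjusted p = 0.0018) to 1.71 on 224565_at (adjusted p = 5.2e-07).

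Of the 48 numbered LINC genes, 12 rose and 3 fell at 16 h, or 25% and 6.25% against 26% and 16.8% of all genes. LINC00115 had the largest rise, from 2.53, 2.67 and 2.94 on vehicle arrays to 3.71, 4.30 and 4.47 at 16 h, with 4 h and 6 h arrays between 2.17 and 2.94. It rose 2.73-fold (log2 change 1.45 ± 0.19 SE, adjusted p = 9.3e-05). LINC00664 had 2.56, 2.75 and 2.72 with vehicle and 3.62, 4.14 and 3.69 at 16 h, a rise of 2.21-fold (log2 change 1.15 ± 0.21 SE, adjusted p = 0.0012). As the mean of its probe sets the LINC00664 rise was 0.39 (adjusted p = 0.01). Both genes had to be high at 16 h to enter the list, and their vehicle signals lay near the unspiked controls.

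LINC02035 was the risen gene with the largest difference at 4 h. Its arrays held 3.43, 3.79 and 3.15 with vehicle, 3.91, 4.12 and 3.97 at 4 h, 3.62, 3.91 and 4.01 at 6 h, and 4.38, 4.92 and 4.60 at 16 h. The 4 h and 16 h arrays lay above all vehicle arrays and the 6 h arrays overlapped them. Only the 16 h rise passed, 2.26-fold (log2 change 1.18 ± 0.17 SE, adjusted p = 0.00018), while 0.54 at 4 h (adjusted p = 0.26) and 0.39 at 6 h (adjusted p = 0.58) did not.

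LINC01000 and LINC00537 rose at 16 h, with 4 h and 6 h means within 0.09 of vehicle. LINC01000 had 5.75, 5.93 and 5.73 with vehicle, 5.64 to 6.05 over the 4 h and 6 h arrays, and 6.81, 6.95 and 6.54 at 16 h, a rise of 1.95-fold (log2 change 0.96 ± 0.13 SE, adjusted p = 0.00012). LINC00537 had 4.86, 4.76 and 4.83 with vehicle, 4.78 to 5.01 at 4 h and 6 h, and 5.57, 6.07 and 5.61 at 16 h, a rise of 1.91-fold (log2 change 0.93 ± 0.12 SE, adjusted p = 6.9e-05). For each gene the 16 h arrays stood clear of the other 9. Another choice of probe set ended each call: the difference for LINC01000 was 0.25 on its probe set outside the cross-matching classes (adjusted p = 0.28), and that for LINC00537 was 0.14 as the mean of its probe sets (adjusted p = 0.21).

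LINC00662 rose 2.2-fold (log2 change 1.14 ± 0.32 SE, adjusted p = 0.014) from widely spread vehicle arrays of 3.49, 5.12 and 4.83 to 5.70, 5.32 and 5.82. The low first vehicle array was not matched on its second probe set 235191_at, which held 3.80, 3.73 and 4.31 with vehicle and 4.86, 5.10 and 5.12 at 16 h (1.08, adjusted p = 6e-04). Of the 4 LINC00662 probe sets in that fit 3 rose. On the brightest, the change was 0.64 without the first vehicle array (adjusted p = 0.012) and 1.04 without the third 16 h array, where it did not pass (adjusted p = 0.051).

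LINC01694 and LINC00623 also rose. LINC01694 went from 4.37, 4.65 and 4.95 to 5.13, 5.85 and 5.73 (log2 change 0.92 ± 0.23 SE, adjusted p = 0.0071), and LINC00623 from 4.03, 4.14 and 3.85 to 4.51, 4.83 and 5.10 (0.81 ± 0.14 SE, adjusted p = 0.00055). The LINC00623 probe set is of the class that can bind related transcripts.

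The other 4 risen LINC genes changed by less. LINC00938, bright at 8.81, 9.00 and 9.14 with vehicle, was at 9.27, 9.26 and 9.24 at 4 h, 9.04, 9.06 and 9.17 at 6 h, and 9.24, 9.33 and 9.28 at 16 h. The 4 h and 16 h arrays lay above the vehicle arrays, and the 16 h rise passed (log2 change 0.30 ± 0.08 SE, adjusted p = 0.011) while the 4 h difference of 0.27 did not (adjusted p = 0.23). Median centring ended the 16 h call (0.20, adjusted p = 0.053). LINC01881 rose by 0.43 (adjusted p = 0.022), from 3.84, 3.83 and 3.90 to 3.94, 4.38 and 4.54. LINC00667 rose by 0.40 (adjusted p = 0.021), from 4.48, 4.28 and 4.68 to 4.68, 4.85 and 5.10, and LINC01139 by 0.40 (adjusted p = 0.034), from 2.89, 3.21 and 3.18 to 3.22, 3.63 and 3.64. In each of these 3 the lowest 16 h array lay level with or barely above the highest vehicle array. Leaving out 1 array ended these calls: without the third 16 h array the changes were 0.31, 0.29 and 0.33 (adjusted p = 0.096, 0.091 and 0.12). They were also lost without the first vehicle array (0.42, 0.40 and 0.30, adjusted p = 0.059, 0.051 and 0.13). LINC01881 and LINC00667 lost theirs without the second vehicle array too (0.42 and 0.30, adjusted p = 0.059 and 0.089), and LINC01881 and LINC01139 without the second 16 h array (0.39 and 0.34, adjusted p = 0.078 and 0.12). LINC01139 also lost its call with quantile normalisation (0.28, adjusted p = 0.078) and with only the 2 groups compared in the fit (adjusted p = 0.051).

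**Figure D3:**
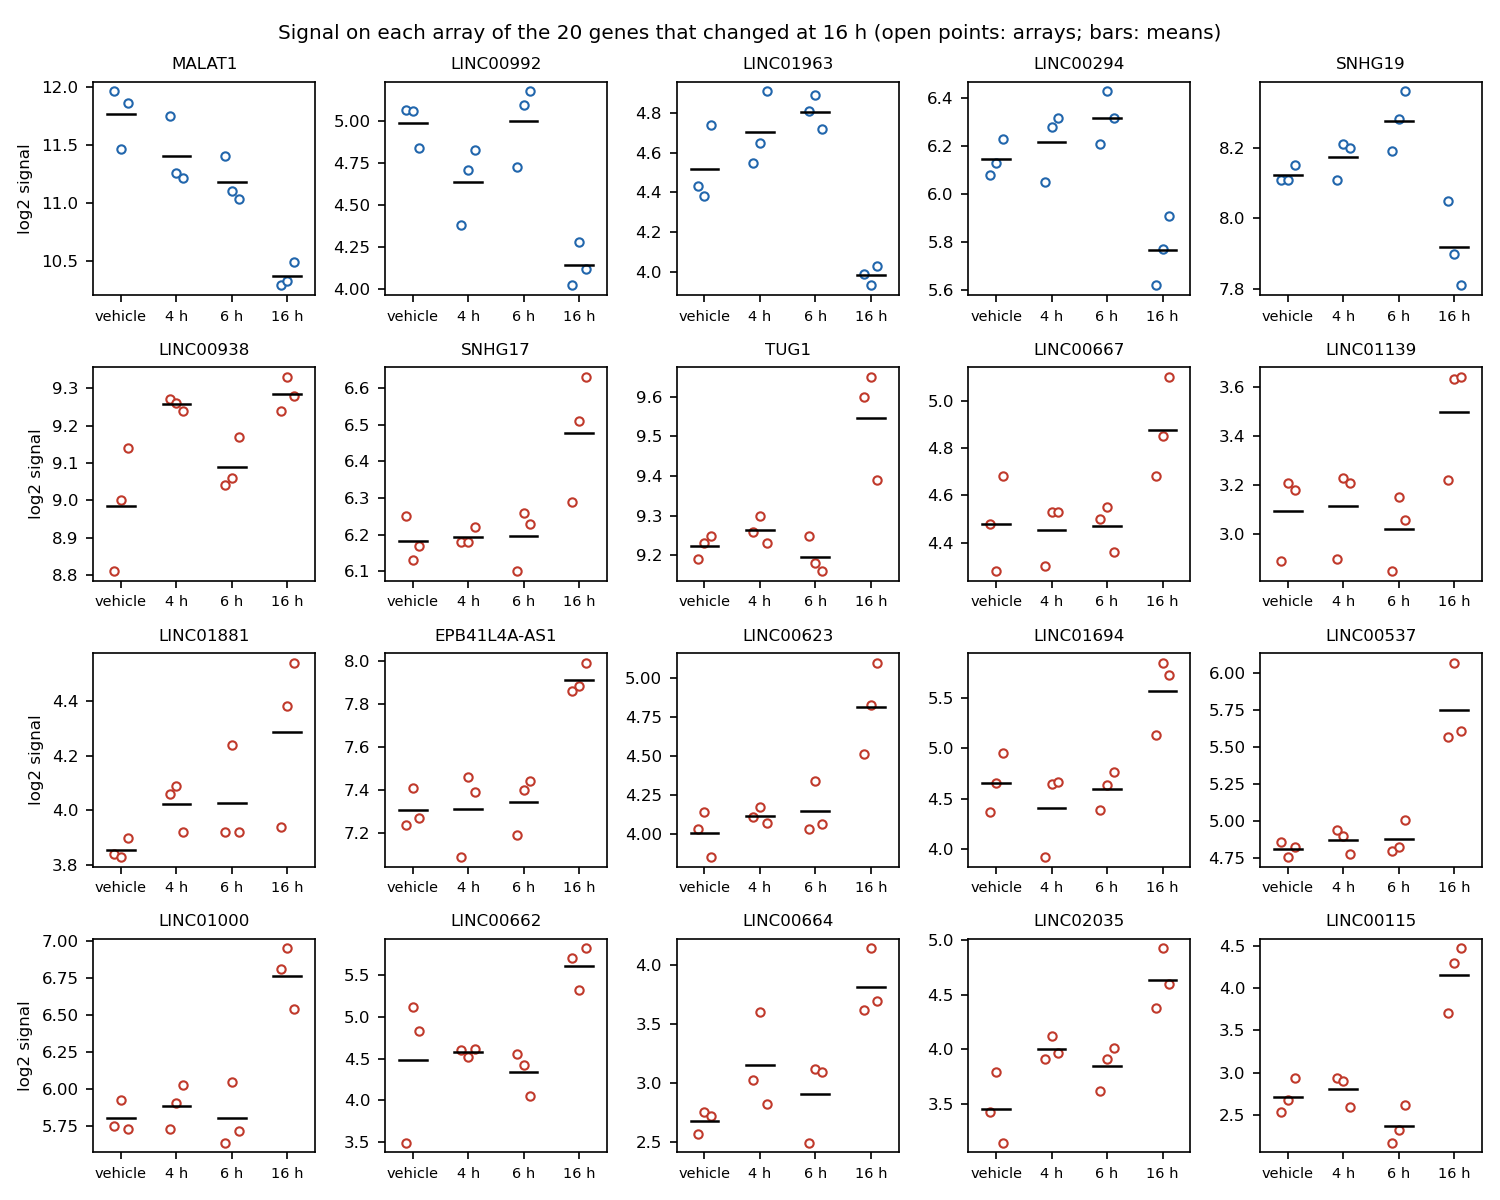
Log2 signal (y axis) on each array (open points) and the group mean (bar) for the 20 genes called at 16 h, 1 panel per gene with its own y range that does not start at 0; fallen genes are blue and risen genes red. For MALAT1 the group means step down from 11.76 to 11.41, 11.18 and 10.37, while for most other panels the vehicle, 4 h and 6 h points share a range that the 16 h points leave.

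Among the LINC genes that fell, LINC00992 changed most. Its arrays held 5.07, 5.06 and 4.84 with vehicle, 4.38, 4.71 and 4.83 at 4 h, 4.73, 5.10 and 5.18 at 6 h, and 4.02, 4.28 and 4.12 at 16 h. It was below vehicle at 4 h (-0.35, adjusted p = 0.39), overlapped it at 6 h, and fell 1.81-fold at 16 h (log2 change -0.86 ± 0.14 SE, adjusted p = 0.00044).

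LINC01963 and LINC00294 had 6 h means above vehicle and then fell. LINC01963 had 4.43, 4.38 and 4.74 with vehicle, 4.55, 4.65 and 4.91 at 4 h, 4.81, 4.89 and 4.72 at 6 h, and 3.99, 3.93 and 4.03 at 16 h (-0.53 ± 0.11 SE, adjusted p = 0.0022). LINC00294 had 6.08, 6.13 and 6.23 with vehicle, 6.05, 6.28 and 6.32 at 4 h, 6.21, 6.43 and 6.32 at 6 h, and 5.62, 5.77 and 5.91 at 16 h (-0.38 ± 0.10 SE, adjusted p = 0.0076). In both genes only the 16 h arrays left the vehicle range entirely, and the 6 h differences of 0.29 and 0.17 did not pass (adjusted p = 0.5 and 0.7).

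The remaining 33 LINC genes were not called at 16 h, with changes from -0.28 to 0.24 by their brightest probe sets. In the fit over probe sets, dimmer ones passed for LINC00205, which rose on 228908_s_at (0.66, adjusted p = 0.0024) and 226995_at (0.47, adjusted p = 0.012), for LINC00674, which rose on 225055_at (0.42, adjusted p = 0.0062), and for LINC00957, which fell on 1569090_x_at (-0.31, adjusted p = 0.017). Those with a change above 0 were LINC01234, LINC00205, LINC02256, LINC02987, LINC00865, LINC01278, LINC00674, LINC03011, LINC00899, LINC02210, LINC01003, LINC00685, LINC00324, LINC00963, LINC00621, LINC01029, LINC02551, LINC00467 and LINC03124, and LINC01222 was at 0.00. Those below 0 were LINC01134, LINC02846, LINC01560, LINC00957, LINC00515, LINC01296, LINC01315, LINC00339, LINC01128, LINC02985, LINC03068, LINC00665 and LINC00889. Bright and steady examples were LINC00467, at 9.02, 9.09 and 8.91 with vehicle and 8.97, 9.03 and 9.08 at 16 h, and LINC00621, at 8.37, 8.42 and 8.41 and then 8.43, 8.47 and 8.45. Their model intervals are narrow (SE 0.07 and 0.06), although a p above the threshold does not show that the levels were equal.

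At 4 h, 0 of the 57 genes passed, 9 had an unadjusted p under 0.05 (limma) against 10.8% of all genes, and the arrays of 4 lay wholly above and of 3 wholly below the vehicle arrays, against 18.3% of all genes not overlapping. The differences ran from -0.43 for LINC00205 to 0.54 for LINC02035. LINC00205 was at 4.29, 4.45 and 4.55 with vehicle and at 4.02, 3.98 and 3.99 at 4 h, all below, and back at 4.27, 4.06 and 4.73 at 6 h (4 h difference -0.43 ± 0.16 SE, adjusted p = 0.36). The comparisons of 4 h, 6 h and 16 h share the vehicle arrays. At 6 h, 0 passed, 5 had an unadjusted p under 0.05 against 8.22% of all genes, and 3 lay wholly above and 2 wholly below, against 14.4%. The 6 h differences ran from -0.58 for MALAT1 to 0.41 for LINC01222.

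Between the treated times, 0 of the 57 genes changed from 4 h to 6 h, where 0.095% of all tested genes were called, and 5 had an unadjusted p under 0.05 (limma) against 9.39% of all. From 4 h to 16 h 15 rose and 7 fell, against 24.8% and 16.1% of all genes, and from 6 h to 16 h 13 rose and 6 fell, against 25.1% and 17.6%. These comparisons share the 16 h arrays with the comparison against vehicle and are not independent of it. Without the third 16 h array, 4 rather than 7 fell from 4 h. MALAT1 fell from 4 h by 1.04 and from 6 h by 0.81. Genes called from 4 h to 16 h but not against vehicle were LINC01560 (-0.47), LINC03124 (-0.28), LINC00205 (0.67) and LINC00865 (0.43), and LINC01134 (-0.47) was such a gene from 6 h. These 5 had 16 h means within 0.28 of vehicle.

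Genes that act with these RNAs were called at 16 h in shares of 28.6% to 46.2% per list, beside 42.8% of all genes. Of 20 nonsense-mediated decay factors 14 were tested, and 4 (28.6%, against 26% of all genes) rose and 0 (against 16.8%) fell at 16 h: UPF1, the central helicase (0.38 ± 0.11 SE, adjusted p = 0.015), EIF4A3 of the exon junction complex (0.31 ± 0.05), SMG8 of the SMG1 kinase complex (0.27 ± 0.09) and PNRC2, a decapping adaptor (0.17 ± 0.06). At an unadjusted p under 0.05 that count was 4 in all. UPF1 was read from a dim probe set with a vehicle mean of 3.96, below the 7.69 to 9.61 of the other risen factors. Of 16 tested snoRNP core and assembly proteins, out of 18, 3 rose (NAF1 by 0.52, ZNHIT6 by 0.40, NOLC1 by 0.27) and 2 fell (TCOF1 by 0.52, RUVBL1 by 0.29), or 18.8% and 12.5%, so the assembly factors went both ways. NAF1 loads box H/ACA particles, ZNHIT6 acts in box C/D assembly, and NOLC1 and TCOF1 are nucleolar phosphoproteins.

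Paraspeckle proteins had the most falls for their number: of 13 tested out of 14, 1 rose (HNRNPH3, by 0.33) and 5 fell at 16 h, or 38.5% against 16.8% of all genes. The falls were small: MATR3, a nuclear matrix RNA binding protein, by 0.67 (adjusted p = 0.013), NUDT21, a cleavage factor subunit, by 0.30, HNRNPK by 0.29, PSPC1 by 0.27, and NONO, which forms dimers with PSPC1, by 0.17 (adjusted p = 0.03). Their NEAT1 scaffold is annotated only on probe sets shared with other symbols, which are given no gene name here. The proteins are therefore not set beside it. MATR3 was read from a probe set with a vehicle mean of 5.87, below the 8.14 to 11.83 of the other fallen genes. Probe sets that the annotation shares between genes were not read for this list, so the largest fall rests on that choice of probe set.

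Of 19 tested protein-coding snoRNA hosts, out of 43, 3 rose and 4 fell at 16 h, or 15.8% and 21.1% against 26% and 16.8% of all genes. The hosts not tested had no bright enough probe set that the annotation gives to them alone, so these counts cover only part of the list. TAF1D, a subunit of the RNA polymerase I selectivity factor, rose by 0.95 (adjusted p = 2.3e-05), CNOT1 by 0.32 and WDR43 by 0.31, while the ribosomal protein gene RPL27A fell by 0.41 (adjusted p = 0.0014), CHD8 by 0.40, ATP5F1B by 0.25 and RPL23A by 0.18. The median change of the 19 tested hosts, -0.06, lay near that of all genes at 0.05. RPL27A and CHD8 were read from probe sets with vehicle means of 6.64 and 5.17, below the 12.64 of RPL23A and 12.14 of ATP5F1B. Among 140 other noncoding RNA genes by symbol, at the same level minimum, 39 rose and 19 fell, or 27.9% and 13.6% against the same 26% and 16.8%. FTX rose by 2.02 (adjusted p = 6e-04), LINC-PINT by 1.47 and FAM131B-AS2 by 1.39, and LBX2-AS1 fell by 1.27 (adjusted p = 2.9e-05). LINC-PINT had a vehicle mean of 2.81, under the level minimum of 3, and vehicle means of other risen genes here reached down to 2.75. Signal at 16 h helped such genes pass the minimum, so the risen share of this list is partly tied to that filter. FAM131B-AS2 also rose at 4 h, by 0.77 (adjusted p = 0.019), and was the only 1 of these 140 genes called before 16 h. The antisense genes are named as annotated, and their probe sets may lie close to the gene on the other strand.

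**Figure D4:**
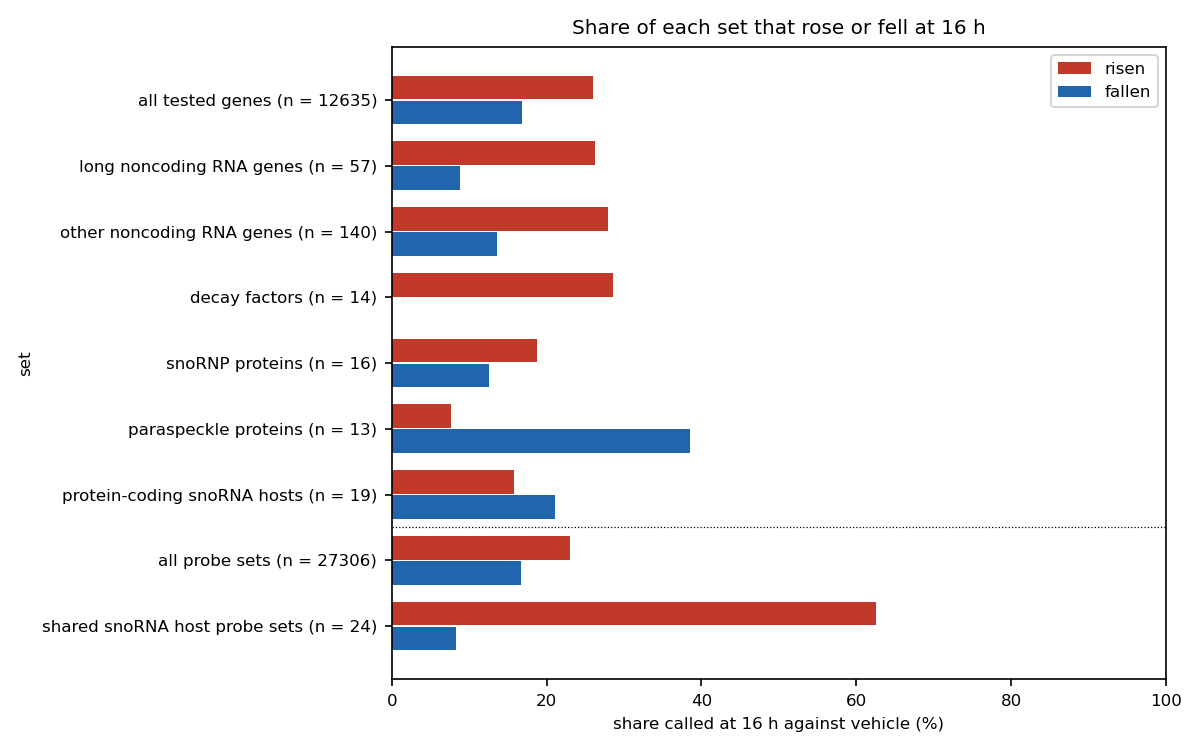
Share of each set that rose (red) or fell (blue) at 16 h against vehicle (x axis, percent, from 0), by set (y axis, with its number of genes, or of probe sets below the dotted line). The 57 long noncoding RNA genes rose at 26.3%, close to the 26% of all tested genes, while the shared snoRNA host probe sets stand at 62.5% risen against 23% of all probe sets, and the paraspeckle proteins at 38.5% fallen against 16.8% of all genes.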

How the data were processed

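The 12 arrays of 22Rv1 RNA were Affymetrix U133 Plus 2.0, and the log2 values deposited by the authors cover 54675 probe sets on each. GCRMA, which corrects background by probe sequence, normalises between arrays and summarises probe sets, is named without a version in the submitters' processing notes. Per the labels' protocols, labelling used a 3' in vitro transcription kit. Such a normalisation hides a change shared by most genes. The array medians lay between 2.1 and 2.15, and the number of arrays limits the precision.

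Probe sets were named through the platform annotation: 41097 had 1 symbol, 1801 had several and were given no gene name, and 11777 were not listed or had no symbol. The 62 control probe sets were set aside. The brightest probe set by its 12-array mean stood for a gene, and 12635 genes whose mean reached 2.11, the median of all probe sets, were tested.

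The log2 values deposited by the authors entered 1 limma 3.58.1 model (R 4.3.3; lmFit and eBayes, 4 groups, 8 residual and 3.69 prior degrees of freedom). Each of 6 comparisons was two-sided, with Benjamini-Hochberg adjustment over all tested genes and a threshold of 0.05. The fit was checked on simulated data. Differences given as a log2 change carry the model's SE. Single array measures were compared by exact permutation.

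The genes, the related lists and the tests were chosen with earlier results of these data known. Genes named with values are those called at 4 h or 6 h, up to 10 rises and 10 falls called at 16 h, the 8 symbols named in the rule and all SNHG genes. Up to 4 called genes of each related list are named, and any called at 4 h or 6 h. LINC00205, LINC00467, LINC00621, LINC01222, LINC00667, LINC01139, LINC00938, PSPC1, NONO, NOLC1, WDR43, ATP5F1B, RPL23A, the 5 genes called only between treated times and the probe sets given singly were named after their values were seen. Alternatives were quantile normalisation, median centring, other filters, other choices of probe set, other settings of the model, a replicate block and leaving out each array.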

Additional observations from a re-analysis of the deposited data

Results flagged for a closer look

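For 22 of the genes the effect at 16 h differed from the effect at 4 h, by the direct test between the 2 treated groups (limma, adjusted p below 0.05). These 22 log2 differences are those of 16 h minus 4 h. Higher at 16 h were LINC00115 (1.35), LINC01694 (1.16), LINC00662 (1.04), LINC01000 (0.88), LINC00537 (0.88), LINC00623 (0.70), LINC00205 (0.67), LINC00664 (0.67), LINC02035 (0.63), EPB41L4A-AS1 (0.59), LINC00667 (0.43), LINC00865 (0.43), LINC01139 (0.39), TUG1 (0.29) and SNHG17 (0.28). Lower at 16 h were MALAT1 (-1.04), LINC01963 (-0.72), LINC00992 (-0.51), LINC01560 (-0.47), LINC00294 (-0.45), LINC03124 (-0.28) and SNHG19 (-0.26).

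For 19 genes the effect at 16 h differed from that at 6 h. Higher at 16 h were LINC00115 (1.79), LINC00662 (1.27), LINC01694 (0.98), LINC01000 (0.96), LINC00664 (0.92), LINC00537 (0.87), LINC02035 (0.79), LINC00623 (0.67), EPB41L4A-AS1 (0.57), LINC01139 (0.48), LINC00667 (0.41), TUG1 (0.35) and SNHG17 (0.28). Lower at 16 h were LINC00992 (-0.87), LINC01963 (-0.82), MALAT1 (-0.81), LINC00294 (-0.55), LINC01134 (-0.47) and SNHG19 (-0.36). The part of the RNA controls, which moved with the 16 h arrays, in these differences was not tested. Groups of 3 arrays are too small to single out an array by its distance from the others.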

How the results depend on the processing

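Of the 20 genes called at 16 h, 10 kept the call under every alternative run for them and 10 lost it under at least 1. Of the others, 11 gained a call under at least 1. Directions that reversed at 16 h were those of TUG1 (-0.11), LINC00467 (-0.07), LINC01128 (0), LINC02551 (-0.18), LINC00665 (0.25) and LINC00963 (-0.10) with the mean of probe sets, LINC00467 (-0.16) and LINC00963 (-0.27) with probe sets outside the _s_at, _x_at and _a_at classes preferred, and LINC00467 (-0.08), LINC00621 (-0.04) and LINC01029 (-0.06) with median centring. Of these genes TUG1 was called in the reported fit, and LINC00665 passed with the mean of probe sets (0.25, adjusted p = 0.0051). That mean kept the call but moved the change by over 1.5 times for MALAT1 (-0.77), EPB41L4A-AS1 (0.34), SNHG17 (0.51), LINC01000 (0.61), LINC00662 (0.73), LINC00664 (0.39) and LINC00667 (0.25). With the same preference for probe sets, or with any probe set of a gene allowed, 1 gene fell at 4 h and 1 at 6 h, MALAT1 through 224559_at. With any probe set allowed, in the fit over probe sets, 18 rose and 6 fell at 16 h. These counts hold MALAT1 and TUG1 in both directions and SNHG19 in neither. The number fallen at 16 h against vehicle was 8 with quantile normalisation and 9 with median centring, where 20.6% and 23.9% of all genes fell. Against 4 h, 11 fell with median centring, where 24.3% of all genes fell. In that comparison 9 rose with the filter at the 75th percentile, which tested fewer genes. Against 6 h, 12 fell with quantile normalisation and 10 with median centring, where 24.2% and 25.8% of all genes fell. Quantile normalisation gave 1.40 for the 16 h ACTB difference against vehicle and 0.06 for that of GAPDH. Median centring moved the median gene's 16 h change by -0.10 against vehicle, -0.11 against 4 h and -0.10 against 6 h.

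Leaving out each array in turn gave 11 to 16 risen and 4 to 6 fallen at 16 h against vehicle, 11 to 14 and 4 to 6 against 4 h, and 11 to 15 and 5 to 6 against 6 h, and 0 in each direction in the comparisons of 4 h, 6 h and vehicle. The shared snoRNA host probe sets, an alternative chosen after seeing the data, gave 14 to 16 risen and 1 to 2 fallen, with 1 fallen without the first or second vehicle array or the first or second 16 h array. With the replicate number as a block, 15 genes rose and 4 fell at 16 h, and 15 of the shared probe sets rose and 2 fell. It ended the call of SNHG19 alone among the 20. Same-numbered arrays deviated together with r from 0 to 0.24 over 18 pairs, and different numbers with r from -0.19 to 0.13, and 7 of 12 arrays correlated best with their own number, so the numbers are not read as a pairing. Genes near the unspiked controls, such as LINC00115 with vehicle, have little signal to measure a change from.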
